A study of Mus musculus with 6 samples.

Results

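The 33 genes described here build the barrier and the cell junctions of squamous epithelium, and they were followed in RNA sequencing of whole mouse lung. They were chosen by symbol: cornified envelope proteins, their transglutaminases, desmosomal cadherins and plaque proteins, proteins secreted in the upper epithelial layers and the transcription factors that drive them, with keratins left out. All 33 were found among the 41388 genes of the table. The study compared adult mice carrying a targeted deletion of the 5' part of Zpbp2, which removes exons 1 to 3 and part of the promoter (KO, strain B6.129S7-Zpbp2 tmZuk/Mmjax on a C57BL/6J background), with adult C57BL/6J control mice born and kept in the same colony (WT). Lungs were taken at ZT7, 7 h after lights on, from 3 WT (WT1 to WT3) and 3 KO mice (KO1 to KO3), without any treatment. The study used both sexes, and the labels do not give the sex of these 6 mice.

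Squamous epithelium forms stratified sheets that resist abrasion and drying, such as epidermis and the lining of the mouth, oesophagus and rodent forestomach. As its cells move outward they assemble a cornified envelope: precursor proteins are laid under the plasma membrane and cross-linked by transglutaminases. Desmosomes hold the cells together through cadherins, which cross the membrane, and plaque proteins, which tie the cadherins to keratin filaments. Healthy lung holds little squamous epithelium, but simple epithelium, airway basal cells, mesothelium and, in the walls of the large veins, cardiac muscle use some desmosomal proteins as well.

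Library totals ranged from 59134950 to 71354388 counts, so that 3 counts, taken as the detection floor, corresponded to between 0.041 and 0.0514 CPM (a gene's count relative to its library's total, after scaling between libraries). Floors and intervals cover counting error only. Zpbp2 had 20, 15 and 7 counts in WT1 to WT3 and 1, 0 and 0 in KO1 to KO3. KO2 and KO3 differed by little more than counting noise (variance 1.71 to 1.94 times that of counting for genes under 20000 counts and 3.33 times at 20000 or more). WT1 and WT2 were as close for genes of 20 to 200 counts (1.86) but not above that, where they reached 50.6, and no other pair within a genotype was as close at any count. For this reason KO2 and KO3 entered as 1 sample, leaving n = 3 WT and n = 2 KO samples. WT3 and KO1 stood apart from the other libraries on the first principal component (52.3% of the variance), at 49.1 and 60 against -14.7 to -37.2, whereas the second (32.2%) separated the genotypes. All 12 lung epithelium and endothelium markers were present in each library, so the labelled tissue was found. P-values measure the spread between these samples.

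The barrier and desmosome genes followed the same split as the first component. In 31 of the 33 members KO1 was the highest library and WT3 the second, whereas KO1 and WT3 were the top pair for 11.5% of the 21885 genes with 10 or more counts in all. In 26 members WT3 was at least 2-fold above both WT1 and WT2 and KO1 at least 2-fold above both KO2 and KO3, against 2.63% of all such genes. The 7 members outside this pattern were Ivl, Ppl, Dsg2, Dsc2, Dsp, Jup and Anxa8. Summed over the 33 members, the level was 1128, 993 and 3405 CPM in WT1 to WT3 and 5416, 1077 and 1075 CPM in KO1 to KO3. In a bulk sample, fewer cells of a type and less RNA per cell cannot be told apart. WT3 and KO1 carry different genotype labels, and each library's value is therefore given for the genes described below.

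**Figure D1:**
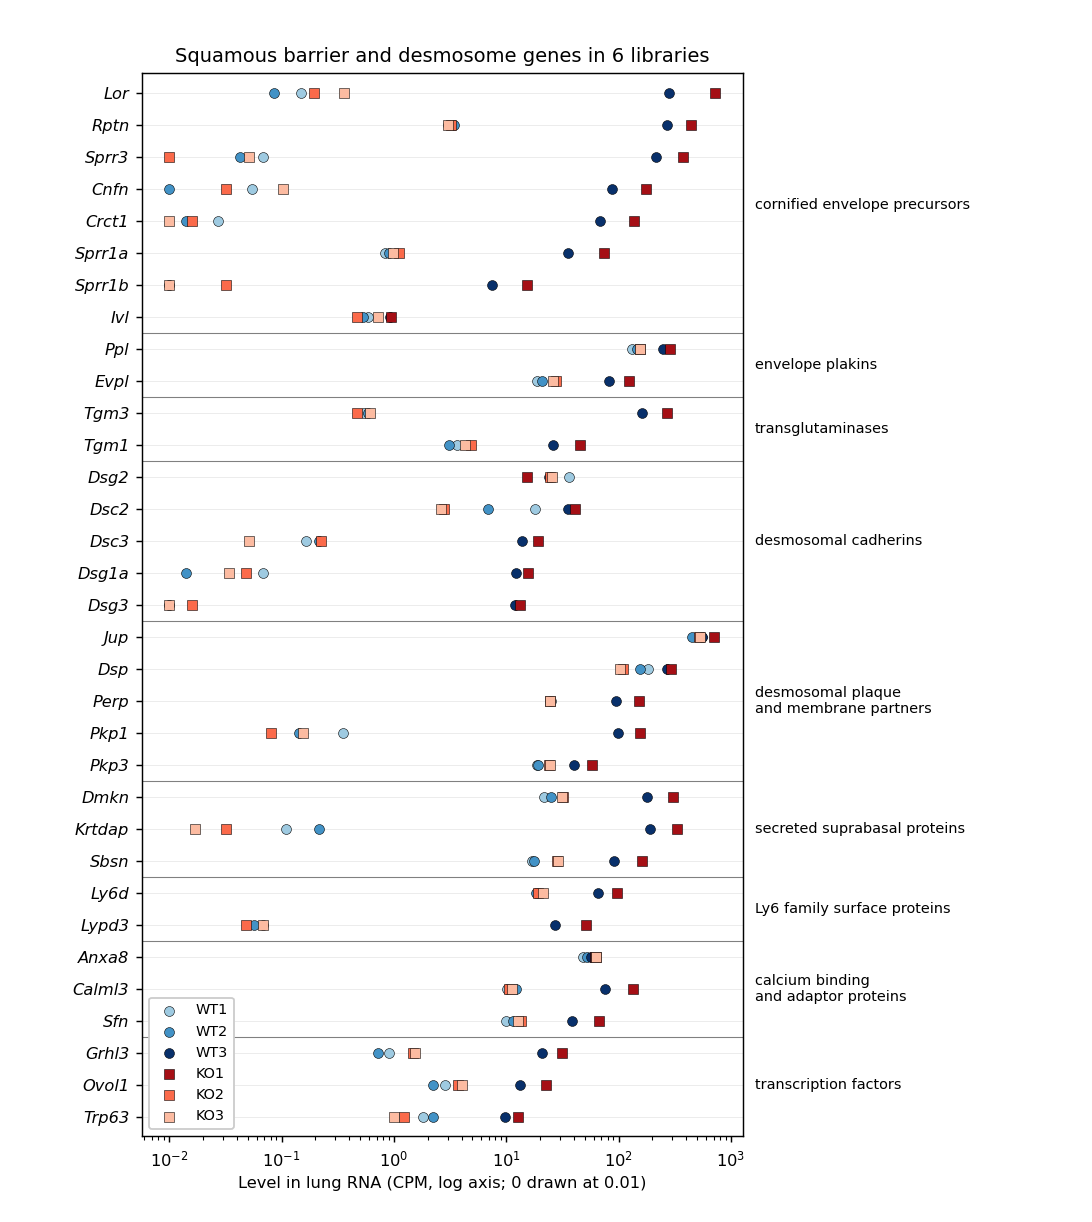
Level of each of the 33 members in each library, in CPM on a log axis, with genes grouped by role and a value of 0 drawn at 0.01. Circles are WT and squares KO libraries. The dark points, WT3 and KO1, lie to the right of the other libraries for most genes (for Lor, WT3 is at 279 CPM and WT1 at 0.15 CPM), and overlap them for Dsg2, Jup and Anxa8.

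Cornified envelope precursors showed the widest range of any role. The 8 members are loricrin (Lor), the main protein of the finished envelope; involucrin (Ivl), its early scaffold; the small proline-rich proteins Sprr1a, Sprr1b and Sprr3, which act as cross-bridges; repetin (Rptn), a calcium-binding precursor; cornifelin (Cnfn); and the cysteine-rich protein Crct1. Together they summed to 4.75, 4.99 and 961 CPM in WT1 to WT3 and 1939.7, 5.08 and 5.24 CPM in KO1 to KO3. Lor had 11, 6 and 16756 counts in the WT libraries and 45719, 12 and 21 in the KO libraries (279 CPM in WT3 and 725 CPM in KO1, at most 0.36 CPM elsewhere). Sprr3 had 5, 3 and 12855 counts in the WT libraries and 23521, 0 and 3 in the KO libraries. Both genes were thus at or near the floor in WT1, WT2, KO2 and KO3 and far above it in WT3 and KO1.

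The other precursors differed in how quiet they were outside WT3 and KO1. Crct1 had 2, 1 and 4061 counts in the WT libraries and 8697, 1 and 0 in the KO libraries, and Sprr1b had 0, 0 and 453 in the WT libraries and 973, 2 and 0 in the KO libraries. Cnfn had 4, 0 and 5199 counts in the WT libraries and 11097, 2 and 6 in the KO libraries. Rptn and Sprr1a, by contrast, were measurable in all 6 libraries. Rptn stood at 3.03, 3.42 and 270.3 CPM in WT and 437, 3.22 and 3.03 CPM in KO, and Sprr1a at 0.833, 0.898 and 35.4 CPM in WT and 74.3, 1.11 and 0.976 CPM in KO. WT3 was thus 79.1-fold above the higher of WT1 and WT2 for Rptn and 39.4-fold for Sprr1a. Sprr1a and Sprr1b belong to a family of near-identical genes, and reads could be divided between them.

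Ivl was the exception among the precursors. It had 43, 37 and 56 counts in the WT libraries and 59, 29 and 42 in the KO libraries (0.527 to 0.932 CPM in WT and 0.467 to 0.935 CPM in KO), so KO1 was only 1.3-fold above the higher of KO2 and KO3. Together with Ivl, 6 of the other members lie together in the epidermal differentiation complex, the gene cluster on chromosome 3 that holds most envelope precursors (Lor, Sprr1b, Sprr3, Sprr1a, Ivl, Crct1 and Rptn, from 92080271 to 93399442 on GRCm38, 1.32 Mb). Among the members of this cluster Ivl lies between Sprr1a and Crct1, both of which had the high values in WT3 and KO1.

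Promoter sequence was available from RefSeq (GRCm38.p6) for 18 of the 33 members, as 21 windows from 250 bases before to 50 bases after a transcription start. Both strands were searched for the AP-1 motif TGANTCA and the TATA box TATAAA, whose letters do not overlap each other. TGANTCA was found in 10 of the 21 windows (47.6%, in Lor, Sprr1a, Sprr1b, Ivl, Rptn, Krtdap, Sbsn and Dmkn) and in 7.81% of all 32851 windows of this length. TATAAA was found in 8 of the 21 (38.1%) and in 13.6% of all windows. The windows of Lor and Sprr3, the precursors with the highest counts among those near the floor elsewhere, of Krtdap, and of Ivl, which did not share their pattern, are printed 5' to 3' with the matches in capitals. The windows are chr3:92083093-92083392 (minus strand) for Lor, chr3:92458671-92458970 (minus) for Sprr3, chr7:30787655-30787954 (plus) for Krtdap and chr3:92573686-92573985 (minus) for Ivl.
Lor: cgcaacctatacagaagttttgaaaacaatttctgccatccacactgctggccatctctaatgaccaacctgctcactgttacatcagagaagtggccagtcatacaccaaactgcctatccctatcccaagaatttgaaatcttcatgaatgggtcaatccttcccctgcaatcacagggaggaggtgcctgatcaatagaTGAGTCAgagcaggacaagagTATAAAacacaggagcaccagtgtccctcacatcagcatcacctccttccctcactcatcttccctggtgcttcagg
Sprr3: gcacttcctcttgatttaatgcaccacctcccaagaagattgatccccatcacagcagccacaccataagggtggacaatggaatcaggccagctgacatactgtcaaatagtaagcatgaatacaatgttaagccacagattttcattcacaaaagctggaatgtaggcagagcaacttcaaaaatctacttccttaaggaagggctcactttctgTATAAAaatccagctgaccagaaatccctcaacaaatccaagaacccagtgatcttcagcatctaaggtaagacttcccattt
Krtdap: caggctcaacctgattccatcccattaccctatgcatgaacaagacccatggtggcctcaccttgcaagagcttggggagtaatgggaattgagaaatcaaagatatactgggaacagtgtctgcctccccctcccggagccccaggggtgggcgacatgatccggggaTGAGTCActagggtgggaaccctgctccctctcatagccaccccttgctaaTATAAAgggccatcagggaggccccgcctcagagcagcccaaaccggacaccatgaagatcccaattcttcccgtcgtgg
Ivl: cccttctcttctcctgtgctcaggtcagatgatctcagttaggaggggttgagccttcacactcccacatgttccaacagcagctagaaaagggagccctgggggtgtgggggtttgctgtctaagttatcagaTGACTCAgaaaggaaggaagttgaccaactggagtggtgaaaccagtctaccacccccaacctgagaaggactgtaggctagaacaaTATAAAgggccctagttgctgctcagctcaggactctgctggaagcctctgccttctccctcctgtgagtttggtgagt
The AP-1 match began 48 bases before the start in Lor, 81 in Krtdap and 116 in Ivl, and the TATA match 27, 33, 30 and 29 bases before the start in Lor, Sprr3, Krtdap and Ivl. Ivl therefore carried both motifs at a level of under 1 CPM in every library, and Sprr3 held no TGANTCA at 373 CPM in KO1. The E-box CANNTG was found in 52.4% of their windows and in 72.3% of all, and the GC box GGGCGG in 28.6% and 35.7%. The CACCC box CCACCC was found in 57.1% against 31.5%, and the grainyhead motif AACNGGTT in 9.52% (Rptn and Sfn) against 2.09% of all windows. A match is a stretch of letters and was not tested as a binding site.

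The envelope plakins, envoplakin (Evpl) and periplakin (Ppl), are cytoskeletal linkers on which the envelope is first assembled, and both were present in all 6 libraries. Ppl stood at 131, 146 and 249 CPM in WT and 286, 156 and 154 CPM in KO. Evpl stood at 18.7, 20.6 and 81.8 CPM in WT and 125, 27.8 and 25.8 CPM in KO. The step to WT3 was smaller than for any precursor but Ivl, 1.71-fold over the higher of WT1 and WT2 for Ppl and 3.96-fold for Evpl. For Ppl, WT averaged 175 ± 64.7 CPM (SD, n = 3) and KO averaged 220.2 ± 92.4 CPM (SD, n = 2), a difference inside the spread.

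Transglutaminases form the bonds that cross-link the envelope. Tgm3, the form of the upper layers, had 40, 41 and 9767 counts in the WT libraries and 16930, 29 and 36 in the KO libraries. Tgm1, the membrane-bound form, had 265, 218 and 1550 counts in the WT libraries and 2847, 301 and 248 in the KO libraries. Both enzymes had the same high pair of libraries, and the step to WT3 was far larger for Tgm3 (278-fold over the higher of WT1 and WT2) than for Tgm1 (7.13-fold). Reads on Tgm1 could include those of an antisense gene, Gm49067, that overlaps its exons, since the sources do not state whether counting used the strand. The same holds for Dsp, Dsg2, Ovol1 and Lypd3, whose exons overlap a gene on the other strand. Exons of Rptn and Sbsn overlap a gene on their own strand, and their counts are uncertain whatever the setting.

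The 5 desmosomal cadherins split into 2 kinds. The desmogleins Dsg1a and Dsg3 and the desmocollin Dsc3 are the cadherins of stratified epithelium, and they were near the floor in WT1, WT2, KO2 and KO3. Dsg3 had 0, 0 and 716 counts in the WT libraries and 835, 1 and 0 in the KO libraries. Dsg1a had 5, 1 and 724 counts in the WT libraries and 991, 3 and 2 in the KO libraries, and Dsc3 had 12, 15 and 830 in the WT libraries and 1210, 14 and 3 in the KO libraries. All of them therefore shared the pattern of the envelope precursors. Dsg1a has near-identical copies beside it, and reads may be divided among them. The counts of its copy Dsg1b were 0, 0 and 637 in the WT libraries and 791, 0 and 0 in the KO libraries.

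Dsg2 and Dsc2, the cadherins of simple epithelium and cardiac muscle, were well above the floor in all 6 libraries, and only Dsg2 lacked the high pair. Dsg2 stood at 36.4, 24.9 and 24.2 CPM in WT and 15.4, 24.6 and 25.7 CPM in KO, so that KO1 was the lowest of all libraries. Dsc2 stood at 17.9, 6.91 and 35.6 CPM in WT and 41.3, 2.8 and 2.6 CPM in KO. KO1 was the highest library for Dsc2 and WT3 the second. WT3 was 1.99-fold above the higher of WT1 and WT2, just under the 2-fold limit. KO1 was 14.7-fold above the higher of KO2 and KO3. In Dsc2, WT1 and WT2 were thus both above KO2 and KO3, a spread that the stratified cadherins did not have. All 5 genes lie in 1 cluster of 0.64 Mb.

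Plaque and membrane partners had the highest summed level of any role in every library but KO1. Plakoglobin (Jup), an armadillo protein that binds the cadherin tails, stood at 555, 446 and 555 CPM in WT and 713, 524 and 531 CPM in KO. Desmoplakin (Dsp), which ties the plaque to intermediate filaments, stood at 184, 154 and 271 CPM in WT and 291, 109.9 and 102 CPM in KO. Jup varied by less than 2-fold across all libraries, and Dsp was lowest in KO2 and KO3. Jup lies on chromosome 11 at 1.81 Mb from the deleted Zpbp2, so it is the member closest to the targeted locus, and Evpl, on the same chromosome, is 17.66 Mb away.

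The plakophilins and Perp differed in their level outside WT3 and KO1, and all 3 were at least 2-fold higher in both. Plakophilin 1 (Pkp1), typical of the upper layers of stratified epithelium, had 26, 10 and 5968 counts in the WT libraries and 9776, 5 and 9 in the KO libraries. Plakophilin 3 (Pkp3), found in most epithelia, stood at 18.8, 19.0 and 39.8 CPM in WT and 58.4, 24.0 and 24.5 CPM in KO. Perp, a membrane protein that desmosomes of stratified epithelium require, stood at 25.1, 24.4 and 94.7 CPM in WT and 152, 24.4 and 24.3 CPM in KO. Outside WT3 and KO1, Perp thus varied by less than 1 CPM.

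Krtdap, Sbsn and Dmkn encode secreted proteins of the suprabasal layers and lie side by side within 39.63 kb on chromosome 7 (30751471 to 30791097). Their baselines differed widely. Krtdap had 8, 15 and 11403 counts in the WT libraries and 20923, 2 and 1 in the KO libraries. Suprabasin (Sbsn) stood at 16.8, 17.8 and 90.9 CPM in WT and 162, 28.4 and 29.0 CPM in KO. Dermokine (Dmkn) stood at 21.5, 24.8 and 179 CPM in WT and 306, 31.8 and 31.3 CPM in KO. For Sbsn and Dmkn, KO2 and KO3 also lay above WT1 and WT2, and for Krtdap they were at the floor.

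The Ly6 family members Ly6d and Lypd3, small proteins anchored to the outer cell surface, again had one gene with a lung level and one without. Ly6d stood at 19.4, 18.3 and 65.6 CPM in WT and 97.7, 19.2 and 21.3 CPM in KO. Lypd3 had 5, 4 and 1619 counts in the WT libraries and 3254, 3 and 4 in the KO libraries. The step was 3.38-fold for Ly6d and 395-fold for Lypd3 from the higher of WT1 and WT2 to WT3.

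Among the calcium-binding and adaptor proteins, Calml3, a calmodulin-like protein of epithelia, stood at 10.1, 12.3 and 75.1 CPM in WT and 135, 10.5 and 11.2 CPM in KO. Stratifin (Sfn), an adaptor protein of differentiating keratinocytes, stood at 9.98, 11.5 and 38.6 CPM in WT and 66.3, 13.5 and 12.8 CPM in KO. Both followed WT3 and KO1. Annexin A8 (Anxa8), a membrane-binding protein, did not: it stood at 48.0, 52.5 and 56.8 CPM in WT and 61.3, 62.6 and 63.4 CPM in KO. It was the only member whose groups did not overlap, where 40.8% of the 18660 genes tested had groups without overlap.

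The transcription factors were present in all libraries at low levels. Trp63, the regulator that establishes stratified epithelium and marks airway basal cells, stood at 1.82, 2.24 and 9.74 CPM in WT and 12.8, 1.24 and 1.01 CPM in KO. Grhl3, a grainyhead factor needed to form the epidermal barrier, stood at 0.901, 0.727 and 20.9 CPM in WT and 31.5, 1.48 and 1.54 CPM in KO. Ovol1, a zinc finger factor of epithelial differentiation, stood at 2.87, 2.21 and 13.2 CPM in WT and 22.8, 3.74 and 4.02 CPM in KO. Grhl3 had the widest step of the 3, at 23.2-fold in WT3 and 20.4-fold in KO1. The steps of Trp63 (4.35-fold in WT3 and 10.3-fold in KO1) and Ovol1 (4.6-fold and 5.67-fold) had no common order. In KO2 and KO3, Grhl3 and Ovol1 were above WT1 and WT2 and Trp63 was below.

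Between genes, levels were compared as CPM per kilobase of exon. In WT1 the order was led by Jup (86.2 CPM per kilobase), Ly6d (26.1), Anxa8 (25.5), Dsp (19.0) and Ppl (18.9), where Ly6d and Anxa8 were too close to be separated (WT2 gave 24.6 for Ly6d and 27.9 for Anxa8), as were Dsp and Ppl. In KO1 the order was led by Krtdap (489 CPM per kilobase), Lor (407), Sprr3 (305), Cnfn (245) and Crct1 (174), with Jup at 111. WT3 had Krtdap first as well, at 279.6 CPM per kilobase, then Sprr3 (175), Lor (157), Cnfn (120.4), Ly6d (88.2) and Jup (86.2). The members at the top of WT3 and KO1 were thus envelope precursors and Krtdap, and those at the top of WT1 were junction proteins and proteins found in many epithelia.

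KO was compared with WT across all genes, which asks whether the Zpbp2 deletion changed gene expression in lung. No member was called (adjusted p at or under 0.05) in edgeR's quasi-likelihood test (0 of 33), where 2.28% of the 18660 tested genes were called (257 higher and 169 lower). Over all genes the number of calls changed with the samples kept: it was 0 without WT1, WT2 or WT3, 355 without KO2 and 418 without KO3. Leaving out a WT library also lowers the number of samples. One member, Anxa8, had an unadjusted p under 0.05, as did 27.3% of all genes tested. DESeq2 called Anxa8 alone of the 19 members to which it gave an adjusted p, and 21.5% of all such genes. The adjusted p of the members ran from 0.131 to 0.977. Their median log2 fold change was 1.13, with 31 above 0 and 2, Dsg2 and Dsp, below, against a median of 0.02 over all genes tested. Summing KO2 and KO3 raised the weight of KO1, which was among 2 KO samples, whereas WT3 was among 3 WT samples. With all 6 libraries as separate samples the median was 0.59 over the 26 members tested. Most members were highest in KO1 and WT3, so their signs are not independent of each other. The members' median was -2.02 without KO1 and 0.09 without both WT3 and KO1.

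The standard errors show how far WT3 and KO1 widened the spread. The log2 fold change was 1.96 (SE 3.38, adjusted p = 0.754 in edgeR) for Lor and 1.25 (SE 2.45, adjusted p = 0.783) for Rptn. The values without KO1 were -8.40 for Lor and -4.88 for Rptn. For the transglutaminases it was 1.30 (SE 2.84, adjusted p = 0.806) for Tgm3 and 1.20 (SE 1.30, adjusted p = 0.607) for Tgm1, or -6.66 and -1.25 without KO1. Krtdap had 1.39 (SE 3.28, adjusted p = 0.822) and Lypd3 1.52 (SE 2.85, adjusted p = 0.774), or -11.23 and -7.24 without KO1. Without both WT3 and KO1, Lor was at 1.20 and Tgm1 at 0.44, Rptn at -0.04, Tgm3 at -0.07 and Krtdap at -2.62, and Lypd3 was not tested.

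The plakins, Ly6d, Dmkn, Calml3 and the transcription factors gave no calls either. In edgeR, the log2 fold change of Ppl was 0.33 (SE 0.38, adjusted p = 0.625) and that of Evpl 0.91 (SE 0.91, adjusted p = 0.577), or -0.18 and -0.59 without KO1. Ly6d had 0.78 (SE 0.86, adjusted p = 0.615), Dmkn 1.17 (SE 1.30, adjusted p = 0.617) and Calml3 1.16 (SE 1.30, adjusted p = 0.618), or -0.77, -1.26 and -1.58 without KO1. Grhl3 had 1.14 (SE 1.83, adjusted p = 0.736) and Ovol1 1.13 (SE 1.06, adjusted p = 0.545), or -2.31 and -0.65 without KO1. Without both WT3 and KO1, 6 of these 7 genes were above 0 (Ppl 0.16, Evpl 0.45, Ly6d 0.10, Dmkn 0.44, Grhl3 0.89 and Ovol1 0.61), and Calml3 was at -0.05.

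The desmosomal genes of simple epithelium and heart, and Anxa8, were not called either. In edgeR, the log2 fold change of Jup was 0.26 (SE 0.17, adjusted p = 0.376) and that of Dsg2 -0.49 (SE 0.29, adjusted p = 0.343). Both kept their sign whichever library was left out, but not their size. Jup ranged from 0.02 (without KO1) to 0.32 (without WT1), and Dsg2 from -0.59 (without WT3) to -0.19 (without KO1). Dsp had -0.03 (SE 0.47, adjusted p = 0.977), or 0.23 without WT3, and Dsc2 had 0.12 (SE 1.18, adjusted p = 0.96), or -0.29 without WT2 and -2.90 without KO1. Anxa8 had 0.25 (SE 0.08, adjusted p = 0.131) and ranged from 0.19 to 0.31 when 1 library was left out. With all 6 libraries as separate samples, Anxa8 was the 1 member called of 26 tested (log2 fold change 0.25, adjusted p = 0.0457 in edgeR), where 18.9% of all genes tested were called.

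**Figure D2:**
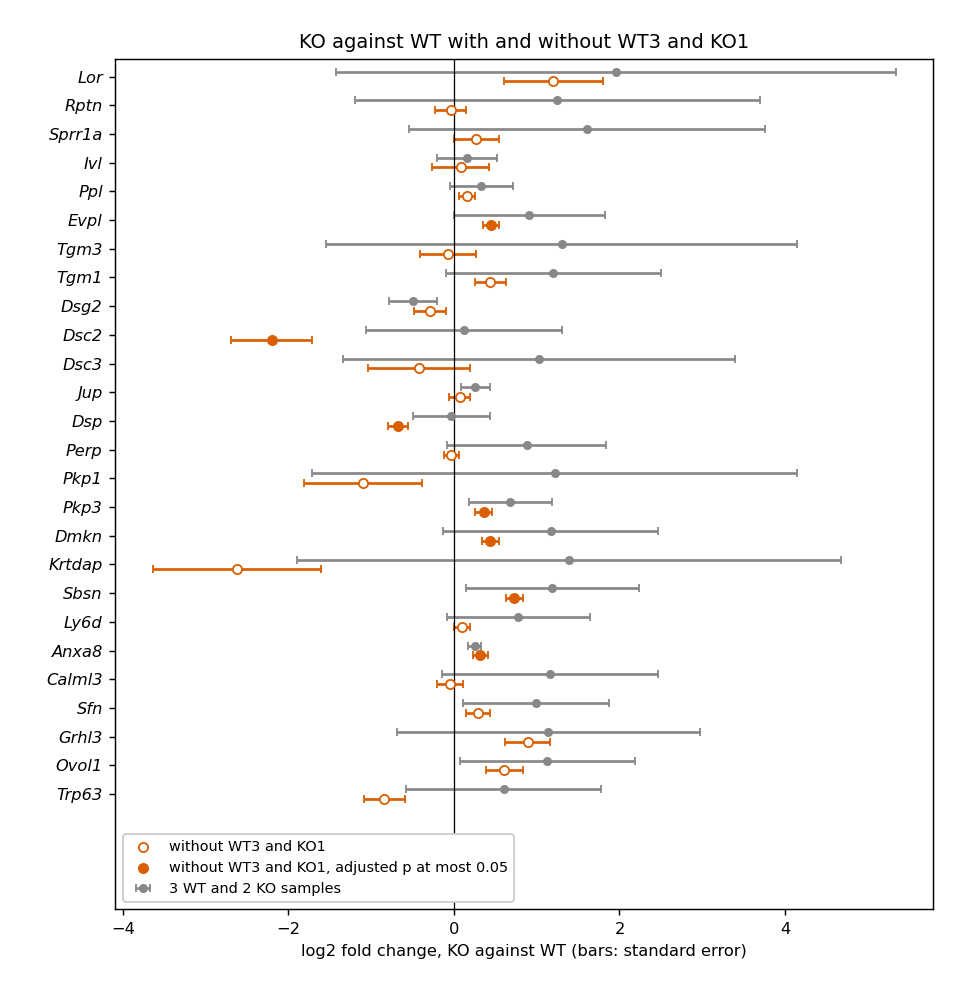
Log2 fold change of KO against WT for the 26 members tested in both fits, with bars of 1 standard error. Grey points are the fit of 3 WT and 2 KO samples, and orange points the fit without WT3 and KO1, filled where the adjusted p was at most 0.05. Without the high pair of libraries the error of Rptn goes from 2.45 to 0.19, those of Ivl and Anxa8 hardly move, and 7 members are filled, 5 to the right of 0 and 2 to the left.

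Without WT3 and KO1, WT1 and WT2 were set against the sum of KO2 and KO3, a single KO sample that was assumed to vary as the WT samples did. In that fit 7 of 26 members were called, where 11.9% of the 18971 genes tested were called. By edgeR, 5 were higher in KO: Sbsn (log2 fold change 0.73, adjusted p = 0.00429), Evpl (0.45, adjusted p = 0.0266), Dmkn (0.44, adjusted p = 0.0316), Pkp3 (0.36, adjusted p = 0.0484) and Anxa8 (0.32, adjusted p = 0.0482). Dsc2 (-2.20, adjusted p = 0.0253) and Dsp (-0.68, adjusted p = 0.0122) were lower. The other 7 members (Sprr1b, Sprr3, Cnfn, Crct1, Dsg1a, Dsg3 and Lypd3) had too few counts in these 4 libraries to be tested. In the main edgeR fit Sbsn had 1.19 (SE 1.04, adjusted p = 0.52) and Pkp3 0.68 (SE 0.5, adjusted p = 0.444).

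Markers of other cell types differed between the same 4 libraries. The 12 lung epithelium and endothelium markers summed to 48933 and 51341 CPM in WT1 and WT2 and 76107 and 75613 CPM in KO2 and KO3, most of it the epithelial genes Scgb1a1 and Sftpc, while the endothelial markers stood at 793 and 821 against 761 and 759 CPM (Pecam1) and 364 and 347 against 391 and 391 CPM (Cldn5). The 6 mesothelium markers summed to 366 and 401 against 537 and 539 CPM. Both sums had the direction of Sbsn, Evpl, Dmkn, Pkp3 and Anxa8, and those of airway gland and mucous markers (1662 and 1651 against 948 and 964 CPM) and airway basal cell markers (20.9 and 18.5 against 11.2 and 11.2 CPM) had the opposite one. The 12 cardiac muscle markers, a list made after the data were seen, summed to 7777 and 3388 CPM in WT1 and WT2 and 1449 and 1462 CPM in KO2 and KO3. Of these 4 libraries, WT1 was highest and WT2 next for Dsc2 (17.9 and 6.91 CPM), for Dsp and for the cardiac sum. Jup and Dsg2 did not have this order. WT2 was the lowest of the 4 for Jup (446 CPM), and for Dsg2 KO3 (25.7 CPM) was above WT2 (24.9 CPM). In WT3 and KO1, where Dsc2 was highest, the cardiac sums were 2791 and 1742 CPM. Their part in the results was not tested.

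In the 11 members with under 30 counts in each of WT1, WT2, KO2 and KO3, nearly all reads came from WT3 and KO1, and the ratio of these 2 libraries could be read gene by gene. The 11 (Lor, Sprr1b, Sprr3, Cnfn, Crct1, Dsg1a, Dsg3, Dsc3, Pkp1, Krtdap and Lypd3) summed to 1009 CPM in WT3 and 2014 CPM in KO1, and to at most 1.07 CPM in any other library. The low sums in the other libraries follow from the limit by which these members were chosen. The KO1 to WT3 ratio had a median of 1.75, against 1.01 over the 14139 genes with 100 or more counts in both libraries. It was not the same for all: Lor stood at 2.60 (95% counting interval 2.55 to 2.64), Sprr3 at 1.74 (1.70 to 1.78) and Dsg3 at 1.11 (1 to 1.23). The intervals of Lor and Dsg3, which cover counting error only, do not overlap, so the proportions of reads among these genes differed between these 2 libraries.

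The ratio went with the role and with the length of the transcript, which these genes do not separate. The 7 genes with under 2000 bases of exon, envelope precursors, Krtdap and Lypd3, had a median ratio of 2.03 (1.74 to 2.60). The 4 genes with 5024 bases or more, 3 cadherins and Pkp1, had a median of 1.34 (1.11 to 1.56). Across the 11 genes, the Spearman correlation of the ratio with exon length was -0.66, and over all 14139 genes it was -0.51. These genes come from the same 2 libraries and are not independent, so the values are a description, and the part of length in the ratio of the members was not tested.

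**Figure D3:**
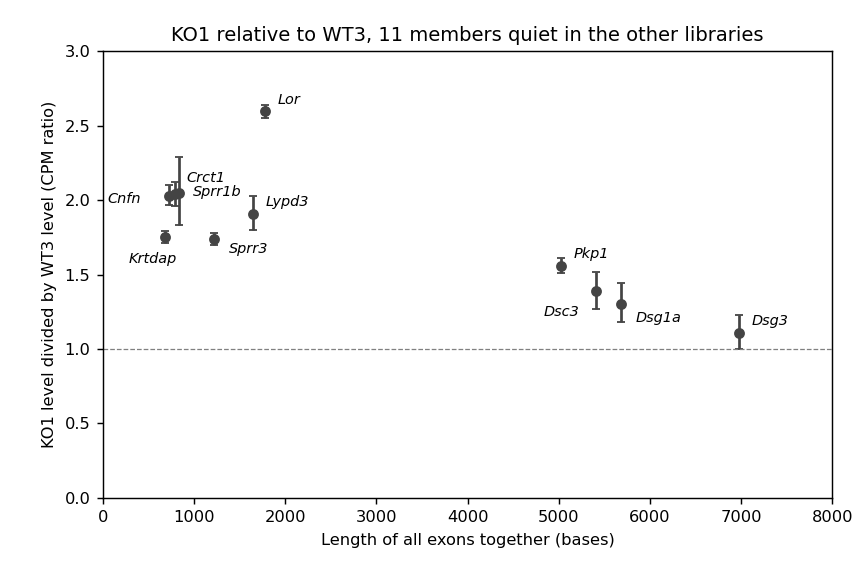
KO1 level divided by WT3 level (CPM ratio) against the length of all exons together in bases, for the 11 members near the floor in the other libraries, with bars of the 95% counting interval and a dashed line at a ratio of 1. The 7 short genes lie between 1.74 and 2.60 and the 4 long genes between 1.11 and 1.56.

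Other genes of squamous tissue had the same high libraries. Of 16 squamous keratins, the filament proteins to which desmosomes attach, 13 were tested and 0 were called by edgeR, and 10 of the 13 with 10 or more counts were at least 2-fold higher in WT3 and KO1. Krt13 stood at 0.915, 0.356 and 1853 CPM in WT and 3572, 0.774 and 0.976 CPM in KO, and its partner Krt4 at 0.929, 0.37 and 1985 CPM in WT and 3687, 0.629 and 0.668 CPM in KO. Both are keratins of non-epidermal stratified epithelium. Krt1, which pairs with Krt10 in the upper epidermis, had 26 to 45 counts in all 6 libraries, and Krt2 had 0.

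Companion lists were, like the members, chosen with results of these data known. Of 68 other stratified epithelium barrier genes, 66 were in the table, 51 were tested and 0 were called in edgeR, and 42 of the 53 with 10 or more counts were at least 2-fold higher in both WT3 and KO1. These included the desmosomal cadherins Dsc1 (0, 1 and 1542 counts in the WT libraries and 1743, 0 and 0 in the KO libraries) and Dsg1b. Of 11 other genes of desmosomes, hemidesmosomes and adherens junctions, none of them a desmosomal cadherin, 1 had that pattern, and 1, the linker gene Dst, was lower in KO (log2 fold change -0.57, adjusted p = 0.0446 in edgeR). Of 21 other squamous transcription factors, 20 were tested, 7 had the pattern, and 1, Hopx, which is also a marker of alveolar epithelium, was higher in KO (0.42, adjusted p = 0.0466 in edgeR). Hopx is also 1 of the 12 lung epithelium and endothelium markers, of which 6 were called, all higher (Ager, Sftpa1, Sftpc, Aqp5, Sftpb and Hopx). Pitx1 was among the 7 transcription factors with the pattern, at 0.123, 0.185 and 17.6 CPM in WT and 32.7, 0.0806 and 0.12 CPM in KO. The loss of 1 WT library left 0 calls of any gene, so none of these calls held there.

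Marker lists of tissues that could lie beside or within a lung sample were read in the same libraries as the barrier genes. The 10 oesophagus and forestomach squamous markers summed to 38.4, 38.1 and 4262 CPM in WT and 7961, 42.3 and 41.4 CPM in KO. Of these, 7 of the 8 with 10 or more counts were 2-fold higher in WT3 and KO1, and Rhcg and Krt84 had at most 2 counts anywhere. The list shares Sprr3 and Tgm3 with the members. The 10 epidermis markers summed to 3.29, 2.96 and 314 CPM in WT and 781, 4.79 and 3.92 CPM in KO, and 5 of the 8 with 10 or more counts were 2-fold higher in WT3 and KO1. The member Lor made up most of the sum in WT3 and KO1 and Krt10 most of it elsewhere, and Krt2 and Flg2 were at 0. The 8 airway basal cell markers, Trp63 among them, summed to 20.9, 18.5 and 267 CPM in WT and 454, 11.2 and 11.2 CPM in KO.

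The 12 striated muscle markers had the same high libraries as the barrier genes, at 128, 84.8 and 4032 CPM in WT and 5773, 50.3 and 47.5 CPM in KO. All 12 were at least 2-fold higher in WT3 and KO1. All but Myh2 (100.2 CPM in WT3 and 1.57 CPM in KO1) and Pvalb (24.7 and 18.0 CPM) were higher in KO1 than in WT3. Skeletal actin (Acta1) stood at 1.83, 0.541 and 1200.2 CPM in WT and 2055, 0.484 and 0.411 CPM in KO. Other lists did not share the pattern. Airway gland and mucous markers summed to between 1276 and 1662 CPM in WT and to 393, 948 and 964 CPM in KO. Cartilage markers (43.2 to 70.2 CPM), thyroid markers (8.12 to 13.2 CPM) and mesothelium markers (336 to 539 CPM) had no member 2-fold higher in both WT3 and KO1, and thymus markers (22.8 to 31.3 CPM) had 1, Foxn1, with 0, 0 and 41 counts in the WT libraries and 88, 0 and 0 in the KO libraries. The part of these tissues in the levels of the barrier genes was not tested.

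**Figure D4:**
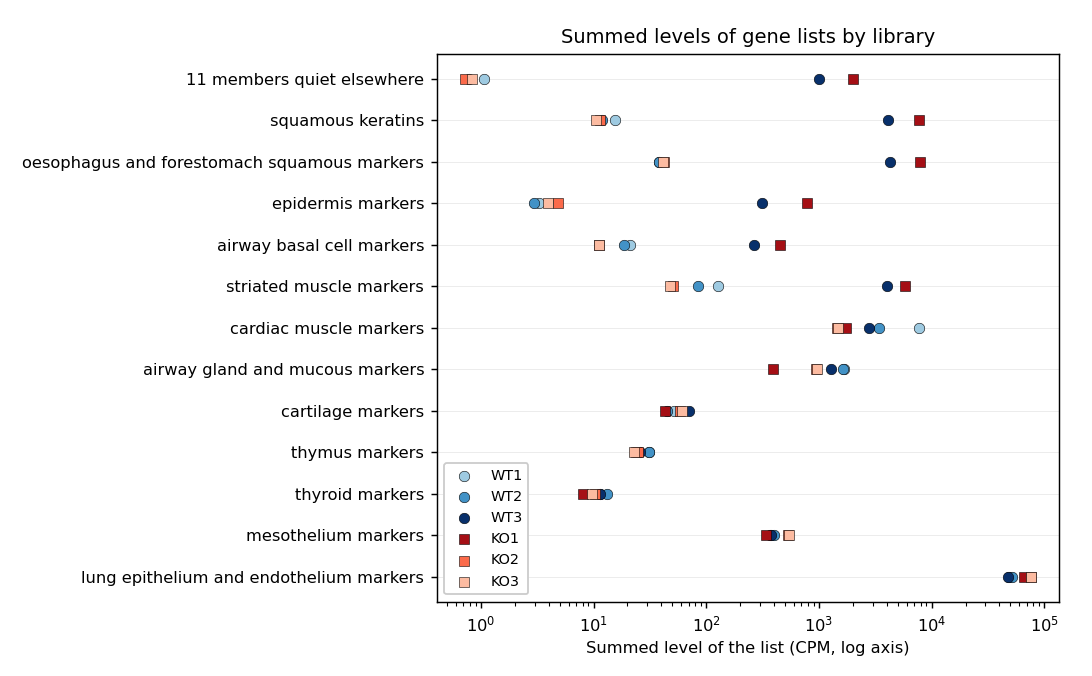
Summed level of each gene list in each library, in CPM on a log axis. Circles are WT and squares KO libraries, and the top line is the 11 members with under 30 counts in WT1, WT2, KO2 and KO3. The dark points, WT3 and KO1, stand apart for the keratins, the oesophagus and forestomach, epidermis and airway basal cell markers and for striated muscle (4032 and 5773 CPM) and lie within or near the others for cartilage, thymus, thyroid and mesothelium.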

How the data were processed

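The authors deposited raw counts of reads per gene. Reads were trimmed and filtered, aligned to GRCm38 (mm10) with STAR and counted with HTSeq within GenPipes; the submitters' processing notes name Trimmomatic 0.36, STAR 2.5.3a, Picard 2.9.0 and HTSeq 0.6.0. Annotation release, read length and strand setting are not given in the sources used here. From these counts, KO and WT were compared in R 4.3.3 with edgeR 4.0.16 (filterByExpr, TMM factors, quasi-likelihood test, two-sided, Benjamini-Hochberg adjustment over all tested genes, calls at 0.05 or less). KO2 and KO3 were summed as 1 sample, and the mean of their CPM is 1 replicate in each mean ± SD. DESeq2 1.42.0, other scalings and filters, a replicate block and leaving out libraries were alternatives. The fit was also run on simulated counts that had the same spread for every gene and no outlying library. That run does not cover genes with 1 high library per genotype. Ratio intervals come from the 95% Clopper-Pearson interval of KO1's share of the counts of KO1 and WT3. Positions and exon lengths are from GENCODE M21, which held 40340 of the identifiers, and promoter windows from RefSeq. All members are named. Fold changes are given for the 2 members of each role with the highest mean CPM among those tested, and for any called in the main or 6-library fit. Those of Sbsn and Pkp3 were added because of the fit without WT3 and KO1. The members, lists and the summing of KO2 and KO3 were chosen with earlier results of these data known, and the cardiac list after the values were seen. No summary lines were in the table.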

Additional observations from a re-analysis of the deposited data

How the results depend on the processing

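Against 426 genes called in all, the count was 3402 with 6 separate libraries, 1157 with 6 libraries and the replicate number as a block, 3875 with DESeq2, 937 with at least 10 counts in every library, 2256 without WT3 and KO1, and 0 to 418 when 1 library was left out. Of the members, 0 were called in the main comparison, 1 with 6 libraries, 1 with DESeq2 and 7 without WT3 and KO1. Their median log2 fold change of 1.13 was 0.59 with 6 libraries, 0.18 with the block and 0.09 without WT3 and KO1, and ranged from -2.02 to 2.17 when 1 library was left out. The replicate numbers did not pair the samples (r of deviations -0.48, 0.56 and -0.65 for numbers 1 to 3). Under the block the sign turned for Rptn (-0.05), Tgm3 (-0.26), Dsc2 (-1.26) and Krtdap (-2.14); with 6 libraries for Dsc2 (-0.37); and without WT3 and KO1 for Rptn (-0.04), Tgm3 (-0.07), Dsc2 (-2.20), Krtdap (-2.62) and Calml3 (-0.05). Leaving out 1 library gave -8.40 to 11.57 for Lor, -4.88 to 6.10 for Rptn, -0.18 to 0.68 for Ppl, -0.59 to 1.95 for Evpl, -6.66 to 7.89 for Tgm3, -1.25 to 2.88 for Tgm1, -2.90 to 0.82 for Dsc2, -0.94 to 0.23 for Dsp, -1.26 to 2.87 for Dmkn, -11.23 to 10 for Krtdap, -0.77 to 1.65 for Ly6d, -7.24 to 1.52 for Lypd3 (not tested without WT3), -1.58 to 2.70 for Calml3, -2.31 to 4.34 for Grhl3 and -0.65 to 2.39 for Ovol1. Apart from the number of samples, the cause was not tested. Of 245 values for 18 members under 14 alternatives, 208 kept their sign and side of the threshold, 5 kept their sign in DESeq2 without an adjusted p, 6 kept their sign and passed the threshold, and 26 turned sign, 1 of which (Dsc2 without WT3 and KO1) also passed it. Where KO1 was left out, the lone KO sample was assumed to vary as WT did.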
